A study of Mus musculus with 9 samples.

Results

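The small leucine-rich proteoglycans are secreted matrix proteins, and 8 of their genes are described here in cells of NIH3T3-CG, a mouse fibroblast line: Aspn (asporin), Bgn (biglycan), Dcn (decorin), Lum (lumican), Fmod (fibromodulin), Prelp, Omd (osteomodulin) and Ogn (osteoglycin, also called mimecan). They were chosen as a family, with earlier results of these data known, and matched by name. All 8 were found among the 30407 genes that the deposited matrices of both experiments share. Cells received SAG, a small molecule that activates Smoothened and so the Hedgehog pathway. Experiment 2 was sampled with Dox at 0, 19 and 30 h of SAG and without Dox at the same times. Experiment 1 was sampled at 0, 17 and 30 h, and its labels do not mention Dox, so it was taken as without. Each of these 9 combinations is 1 library. All groups are the same line, and neither the action of Dox in it nor the meaning of the suffix CG is given in the sources used here.

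The core of each of these proteins is a curved run of leucine-rich repeats that binds collagen, and the family is known for setting the width and spacing of collagen fibrils in skin, tendon, cornea and bone. Several members also bind growth factors of the TGF-beta family or their receptors. Decorin and biglycan carry chondroitin or dermatan sulfate chains, lumican, fibromodulin, osteomodulin and osteoglycin can carry keratan sulfate, and asporin, which has a stretch of aspartates instead, carries no such chain.

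A kept cell had at least 5000 unique molecular identifiers (UMIs), each a tag for 1 captured RNA molecule, and at most 10% of them mitochondrial. In all 18733 cells were kept, 571 to 6520 per library, with 19407468 to 105444824 UMIs summed per library. Of barcodes with enough UMIs, 25.9% to 46.3% failed the mitochondrial limit. Cells with under 1% mitochondrial UMIs made up 18.2% and 17.9% of the libraries with Dox at 19 and 30 h and 19.7% of the Experiment 2 library without Dox at 30 h, against 0.429% to 1.41% of the other 6. The 36 pairs of libraries shared 0 to 9 barcodes of kept cells, at most 0.513% of the smaller library. All 9 fibroblast markers checked, among them Col1a1, Vim and Pdgfra, were detected in every library, and their levels summed to 8081 to 9037 CPM (UMIs per 1000000 UMIs of a library) with Dox, 6749 to 8778 CPM without Dox in Experiment 2 and 5974 to 6756 CPM in Experiment 1. The 5 epithelial and the 5 endothelial markers were each under 1 CPM in every library, with 2 to 4 and 1 to 3 of them at 0. Smooth muscle or myofibroblast markers summed to 298 to 496 CPM with Dox, 370 to 486 CPM without Dox in Experiment 2 and 125 to 171 CPM in Experiment 1. Of the 5 osteoblast and 5 tendon markers Alpl, Ibsp and Thbs4 were at 0 in all 9 libraries, and Sp7, Bglap, Scx and Tnmd reached at most 0.1 CPM, so that the sums, 19.7 to 25.4 CPM and 10.9 to 14.3 CPM with Dox, 17.4 to 21.8 CPM and 13.8 to 20.2 CPM without Dox in Experiment 2, and 53.9 to 59.7 CPM and 33.0 to 46.3 CPM in Experiment 1, were nearly all Runx2, Tnc and Mkx. Chondrocyte markers, nearly all Sox9, summed to 22.7 to 67.4 CPM with Dox, 7.03 to 26.7 CPM without Dox in Experiment 2 and 19.5 to 39.5 CPM in Experiment 1. Adipocyte and macrophage markers summed to 5.92 to 8.19 CPM and 12.8 to 16.2 CPM with Dox, 5.22 to 6.74 CPM and 10.2 to 15.5 CPM without Dox in Experiment 2, and 12.3 to 17.0 CPM and 14.8 to 16.8 CPM in Experiment 1. Cidec was at 0 in every library, Adipoq, Adgre1 and Ptprc were under 0.1 CPM, and Cd68 stood at 0.715 to 1.02 CPM with Dox, 1.51 to 2.47 CPM without Dox in Experiment 2 and 9.79 to 12.5 CPM in Experiment 1. The part of any of these marker sums in the results was not tested. Gli1, a direct Hedgehog target, stood at 0.134, 19.8 and 25.8 CPM at 0, 19 and 30 h with Dox, at 0.0509, 8.16 and 16.8 CPM without Dox in Experiment 2, and at 0.206, 7.91 and 3.98 CPM at 0, 17 and 30 h in Experiment 1.

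The family's RNA was mostly biglycan. Levels in CPM are scaled by the TMM factors of edgeR and count molecules whatever the length of the gene. Together the 8 genes reached 1198, 1157 and 1395 CPM with Dox at 0, 19 and 30 h, against 632, 773 and 1096 CPM without Dox in Experiment 2 and 1352, 982 and 1243 CPM at 0, 17 and 30 h in Experiment 1. Biglycan made up 48.4%, 74.1% and 79.8% of that sum with Dox, 71.2%, 77.7% and 80.7% without Dox in Experiment 2, and 83.3%, 82.0% and 88.1% in Experiment 1. By median level over the 3 libraries of an arm the order was Bgn, Ogn, Dcn, Aspn, Lum, Prelp, Omd and Fmod with Dox. Without Dox in Experiment 2 it was the same except that Lum stood above Aspn. In Experiment 1 the order was Bgn, Dcn, Lum, Ogn, Aspn, Omd, Prelp and Fmod. Several neighbours in these orders overlapped in range. With Dox, the lowest Ogn library, at 93.5 CPM, lay inside the Dcn range of 84.4 to 107 CPM, and without Dox in Experiment 2 the ranges of Ogn, 68.9 to 137 CPM, and Dcn, 33.3 to 126 CPM, also crossed. Kera, Epyc and Chad, further members of the wider family, had no UMI in any library.

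**Figure D1:**
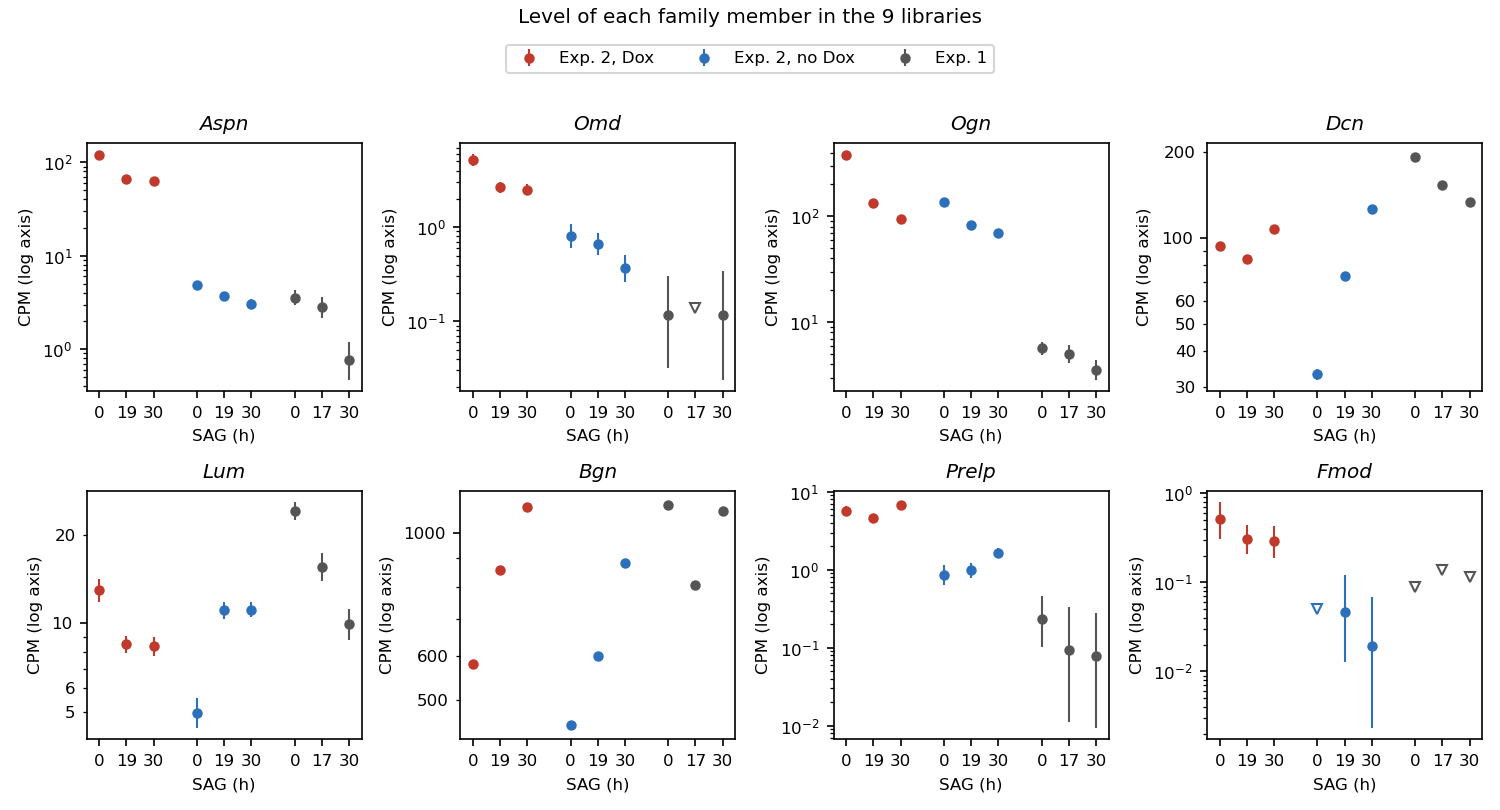
Level of each of the 8 genes (CPM, log axis, a different range in each panel) in the 9 libraries, by hours of SAG, with Dox in Experiment 2 (red), without Dox in Experiment 2 (blue) and in Experiment 1 (grey). Points are single libraries with exact Poisson 95% intervals of the count, and open triangles mark the level of 3 counts where a library had 0. Aspn, Omd, Prelp and Fmod lay higher in all 3 libraries with Dox than in the other 6, and Ogn was lowest in Experiment 1.

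With Dox, asporin had the largest fitted change of the family, and 7 of the 8 genes passed the test in the upward direction. Aspn had 119, 65.4 and 62.7 CPM at 0, 19 and 30 h with Dox, against 4.80, 3.69 and 3.05 CPM without Dox in Experiment 2. The ranges are far apart, and the lowest library with Dox lay above the highest without. The log2 change was 4.38 (SE 0.14, adjusted p = 5.29e-26, edgeR quasi-likelihood test, 6 Experiment 2 libraries, SAG times as covariate), the 4th highest change and the smallest p among 13299 genes tested. Over all genes tested 38.8% were called, 19.4% as higher, so that a call by itself is common in this comparison. The 8 members had a median log2 change of 1.58, against 0.02 over all genes tested.

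Each SAG time has 1 library with Dox and 1 without, so the times served as replicates within 1 experiment. With 2 residual degrees of freedom, the fit draws the spread of each gene towards that shared by all genes. An SE or p-value is thus not the variation of that gene alone between libraries. For Dcn, Lum and Ogn the changes at single times, given below, lie further apart than their SE. The labels do not say whether cultures were separate. As these are sums over cells, fewer cells with a transcript and less transcript per cell are not told apart by them. A scaling by library sizes alone, chosen after seeing the data, moved the median of all genes to 0.41 and the calls to 6851 higher and 475 lower, against 2578 higher and 2586 lower with TMM. Under it all 8 members were called higher, Aspn with a change of 4.77, and Bgn, Dcn and Lum, at 0.80, 0.86 and 0.55, stood less than 0.5 above that median.

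Biglycan and decorin, which share asporin's class among the members described here, moved much less. Bgn had 579.8, 857 and 1114 CPM at 0, 19 and 30 h with Dox, against 449.8, 600.3 and 884 CPM without Dox. It was higher with Dox at each time, although the ranges overlap because its level was higher at the later times in both arms, and its log2 change was 0.40 (SE 0.14, adjusted p = 0.0225). Without the 0 h or the 30 h library of either arm that call was lost, with adjusted p between 0.115 and 0.231. Dcn had 93.8, 84.4 and 107 CPM with Dox, against 33.3, 73.5 and 126 CPM without. Its arms overlap, and the sign of the difference turned with time: the log2 change was 1.49 at 0 h, 0.20 at 19 h and -0.24 at 30 h. The fit over the 3 times gave 0.47 (SE 0.17, adjusted p = 0.0293), a call that DESeq2 did not make (adjusted p = 0.512) and that became -0.02 without the 0 h library of either arm. Leaving out the cells with under 1% mitochondrial UMIs also ended it (0.44, adjusted p = 0.122).

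Among the lumican and fibromodulin class, osteomodulin and PRELP, a protein with a basic stretch that binds heparan sulfate, were higher with Dox in every library. Omd, known from mineralised tissue, had 5.22, 2.65 and 2.51 CPM at 0, 19 and 30 h with Dox, against 0.815, 0.668 and 0.365 CPM without, a log2 change of 2.46 (SE 0.19, adjusted p = 1.91e-13). Prelp had 5.70, 4.69 and 6.82 CPM with Dox, against 0.866, 0.996 and 1.65 CPM without, a log2 change of 2.28 (SE 0.15, adjusted p = 5.44e-15). In neither gene do the arms overlap. Fmod was close to the limit of detection. It had 19, 30 and 26 UMIs at 0, 19 and 30 h with Dox, against 0, 4 and 2 UMIs without, or 75 against 6 in all. Its log2 change of 3.75 (SE 0.51, adjusted p = 2.53e-07) rests on these few molecules. At 0 h, where the library without Dox had none, the level with Dox was 10.04 times the level of 3 counts in that library. This ratio takes the 19 UMIs with Dox as exact, so it is not a lower bound. The Poisson interval at 0 h ran from 0.308 to 0.798 CPM with Dox and reached up to 0.0626 CPM without. Lum, the 8th gene, had 13.02, 8.48 and 8.36 CPM with Dox, against 4.96, 11.1 and 11.1 CPM without. In the fit over the 6 libraries it was the member that did not pass the test (log2 change 0.13, SE 0.18, adjusted p = 0.573), with single-time changes of 1.39, -0.38 and -0.41. The fit gave -0.40 without the 0 h library of either arm and 0.44 without the 30 h library of either arm, where Lum was called (adjusted p = 0.0259 without the library with Dox and 0.0261 without the one that lacked it).

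Osteoglycin, a keratan sulfate protein first isolated from bone, was raised to a middle extent, most at 0 h. Ogn had 381, 134 and 93.5 CPM at 0, 19 and 30 h with Dox, against 137, 82.7 and 68.9 CPM without. The arms overlap only because both were lower at the later times: at each time the library with Dox was higher, by 1.47, 0.70 and 0.44 on the log2 scale. The fit gave 0.87 (SE 0.15, adjusted p = 1.28e-05), and 0.57 (adjusted p = 0.0501) without the 0 h library that lacked Dox.

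**Figure D2:**
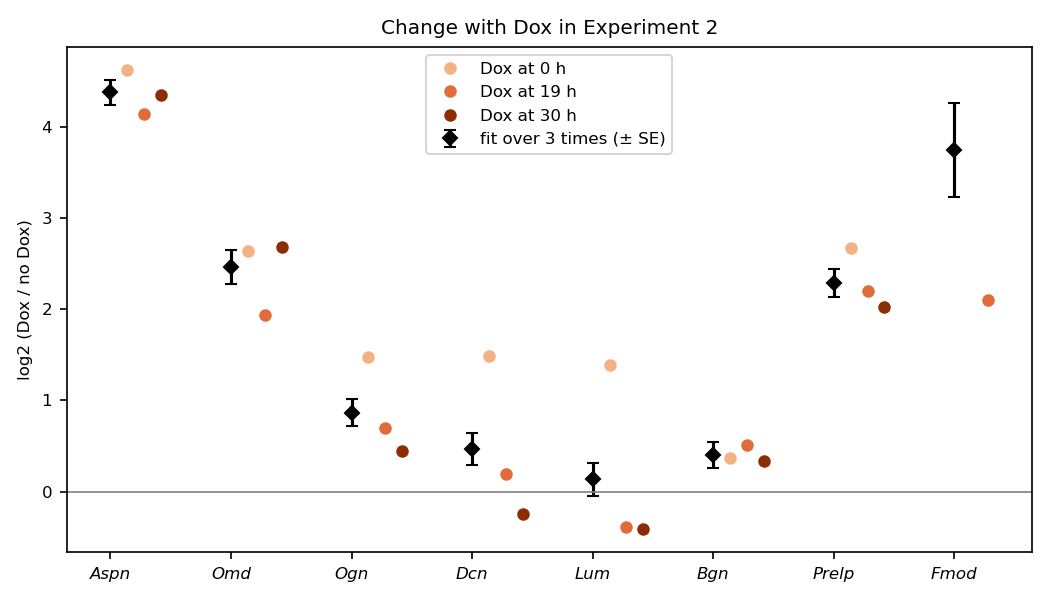
Change with Dox of each member in Experiment 2 (log2 of Dox over no Dox). Black diamonds are the fit over 3 SAG times with its SE, and coloured points are the differences at 0, 19 and 30 h, left out where either library had 3 UMIs or fewer. Aspn stood between 4.14 and 4.62 at the 3 times, while Dcn and Lum were above 0 at 0 h and at or below -0.24 at 30 h.

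Asporin, osteomodulin and osteoglycin are neighbours. On GRCm38 (mm10, GENCODE vM21) Aspn lies at chr13:49544443-49567565, Omd at chr13:49582462-49592822 and Ogn at chr13:49608046-49624501, all on the plus strand, with Ecm2, which encodes another matrix protein with leucine-rich repeats, at chr13:49504810-49532789. All 4 lie within Cenpp (chr13:49464023-49652785, minus strand), which encodes a centromere protein. Whether the authors' counting used the strand is not given in the sources used here, so reads of these genes and of Cenpp may not be fully told apart. With Dox, Cenpp itself had a log2 change of -0.44 (SE 0.13, adjusted p = 0.00689). Dcn (chr10:97479609-97518143) and Lum (chr10:97565128-97572703) are likewise adjacent, as are Prelp (chr1:133910304-133921414, minus strand) and Fmod (chr1:134037254-134048277), and Bgn stands apart at chrX:73483602-73495933.

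The strongest changes with Dox in the chromosome 13 stretch were those of the leucine-rich repeat genes and of Fgd3. Ecm2 had 2.64, 2.04 and 2.12 CPM at 0, 19 and 30 h with Dox, against 0.306, 0.305 and 0.336 CPM without, a log2 change of 2.80 (SE 0.21, adjusted p = 1.84e-13). Fgd3 (chr13:49261554-49320311, minus strand), which encodes an exchange factor for the GTPase Cdc42, had 1.26, 1.61 and 1.58 CPM with Dox, against 0.255, 0.211 and 0.336 CPM without, a change of 2.48 (SE 0.24, adjusted p = 1.04e-10). Of the 12 other protein-coding genes lying wholly within 500000 bases of the 3 members 10 were tested. Of these, 6 were called higher and 1 lower, next to 19.4% each over all genes. Card19, Bicd2, Ippk and Ninj1 accounted for the other higher calls, with changes of 0.32 to 0.54. The genes just past Ogn, Nol8 and Iars, did not pass the test (-0.04 and -0.21). This window was set with the results for the members known. A window of the same reach around Prelp and Fmod gave 1 higher and 2 lower of 10 other genes tested. Around Bgn 3 were higher and 5 lower of 16, and around Dcn and Lum 0 of 4 were tested.

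**Figure D3:**
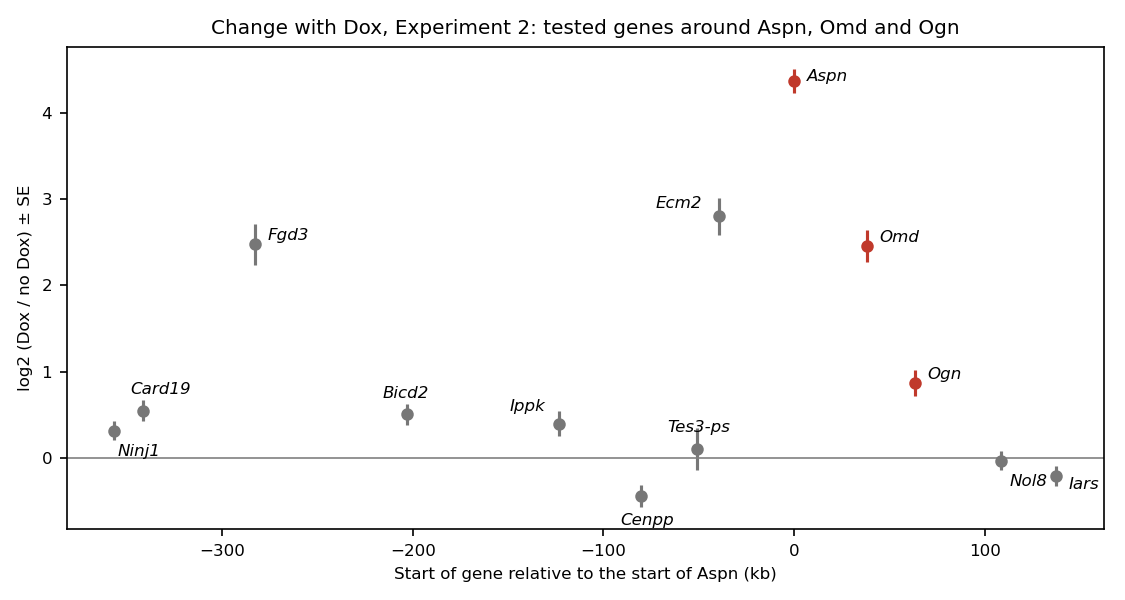
Change with Dox in Experiment 2 (log2 ± SE of the fit over 3 times) of the tested genes around Aspn, plotted by the distance of the gene's annotated left end from that of Aspn in kb. Red points are Aspn, Omd and Ogn and grey points other genes. Aspn (4.38), Ecm2 (2.80), Omd (2.46) and Fgd3 (2.48) stood above 2, and Cenpp, which spans Ecm2, Aspn, Omd and Ogn, stood at -0.44.

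The 250 bases before the RefSeq starts of the 3 neighbours are shown because these genes rose together with Dox, with the motif TATAAA (either strand) in capitals. The sequences are those of RefSeq on GRCm38.p6, plus strand, at chr13:49544193-49544442 for Aspn, chr13:49582212-49582461 for Omd and chr13:49607765-49608014 for Ogn, whose RefSeq start lies before the GENCODE start given above.
Aspn: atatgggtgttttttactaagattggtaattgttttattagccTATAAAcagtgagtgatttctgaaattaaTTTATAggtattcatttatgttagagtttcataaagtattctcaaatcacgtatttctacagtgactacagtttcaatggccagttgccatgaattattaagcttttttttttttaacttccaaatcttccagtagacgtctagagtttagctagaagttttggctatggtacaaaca
Omd: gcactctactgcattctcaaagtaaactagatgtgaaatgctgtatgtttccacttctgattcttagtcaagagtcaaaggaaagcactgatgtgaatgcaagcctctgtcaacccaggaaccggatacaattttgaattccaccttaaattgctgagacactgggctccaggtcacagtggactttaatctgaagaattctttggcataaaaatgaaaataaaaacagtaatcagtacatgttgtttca
Ogn: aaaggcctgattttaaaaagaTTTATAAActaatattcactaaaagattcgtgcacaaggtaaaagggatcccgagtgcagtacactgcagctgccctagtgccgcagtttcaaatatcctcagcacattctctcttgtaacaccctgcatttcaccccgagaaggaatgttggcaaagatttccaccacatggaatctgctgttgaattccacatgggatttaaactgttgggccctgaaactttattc
All 3 stretches are poor in G and C, at 30.0%, 38.4% and 42.0% of bases in Aspn, Omd and Ogn, against a median of 52.4% over 32851 promoters of the same length. TATAAA occurred in Aspn and Ogn, as it did in 12.37% of all promoters, and in Ogn its matches on both strands overlap. GACCACCCA, the motif of the Gli factors, and TGANTCA, that of AP-1, were in none of the 6 member promoters in the table, and in 0.2253% and 6.749% of all promoters. Both strands were searched. These are matches of letters and not sites shown to be bound.

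Asporin RNA was spread over many cells with Dox. After each cell with at least 10000 UMIs was thinned at random to that number, 46.5%, 37.6% and 38.3% of cells with Dox had an Aspn UMI at 0, 19 and 30 h (615 of 1324, 727 of 1935 and 586 of 1529 cells). Without Dox in Experiment 2 the shares were 2.97%, 2.49% and 2.25%. In Experiment 1 they were 2.51% and 2.58% at 0 and 17 h, and 0 of 559 cells at 30 h, which allows a share of up to 0.537%. The Clopper-Pearson 95% intervals ran from 35.4% to 49.2% over the libraries with Dox and from 1.65% to 3.69% over those without in Experiment 2. Cells with 3 or more Aspn UMIs made up 16.8%, 9.66% and 9.81% with Dox, against 0.0376%, 0.0383% and 0.195% without Dox in Experiment 2. All libraries hold the same line, so no cell type that lacks the gene gives a background share.

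Thinning left out 16 to 321 cells per library, except 3910 of 6520 in the Experiment 2 library without Dox at 19 h. The median UMIs per kept cell were 8025 in that library and 28335 to 48188 in the others. Shares at full depth are thus not compared at equal depth. In all kept cells at their full depth, 64.5%, 58.8% and 63.4% had an Aspn UMI at 0, 19 and 30 h with Dox, against 6.11%, 3.62% and 6.39% without Dox in Experiment 2 and 6.00%, 4.73% and 2.39% at 0, 17 and 30 h in Experiment 1. Intervals and limits of this kind cover counting error only.

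The other members differed in how evenly they were spread. Biglycan was found in 91.7% to 100% of cells in each of the 9 libraries. Osteoglycin was found in 76.1%, 55.0% and 44.9% of cells with Dox, against 47.6%, 40.1% and 38.6% without Dox in Experiment 2 and 5.34%, 6.26% and 4.29% in Experiment 1. Decorin had the highest ratio of variance to mean in each of the 9 libraries: its variance over cells was 3.87 to 7.69 times its mean, against 1.48 to 3.40 times for biglycan. In the library without Dox at 30 h of Experiment 2, 39.6% of cells had a Dcn UMI where molecules spread independently at that mean (Poisson) would give 75.4%, and the richest 1% of cells held 16.3% of them. The share of cells with 3 or more Dcn UMIs at 0, 19 and 30 h was 11.7%, 13.2% and 16.4% with Dox, against 2.75%, 6.70% and 16.5% without. Omd and Prelp were found in 2.95% to 4.68% and 4.65% to 6.41% of cells with Dox, against 0.342% to 0.640% and 0.752% to 1.17% without Dox in Experiment 2, and Fmod in at most 0.529% of cells in each library.

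**Figure D4:**
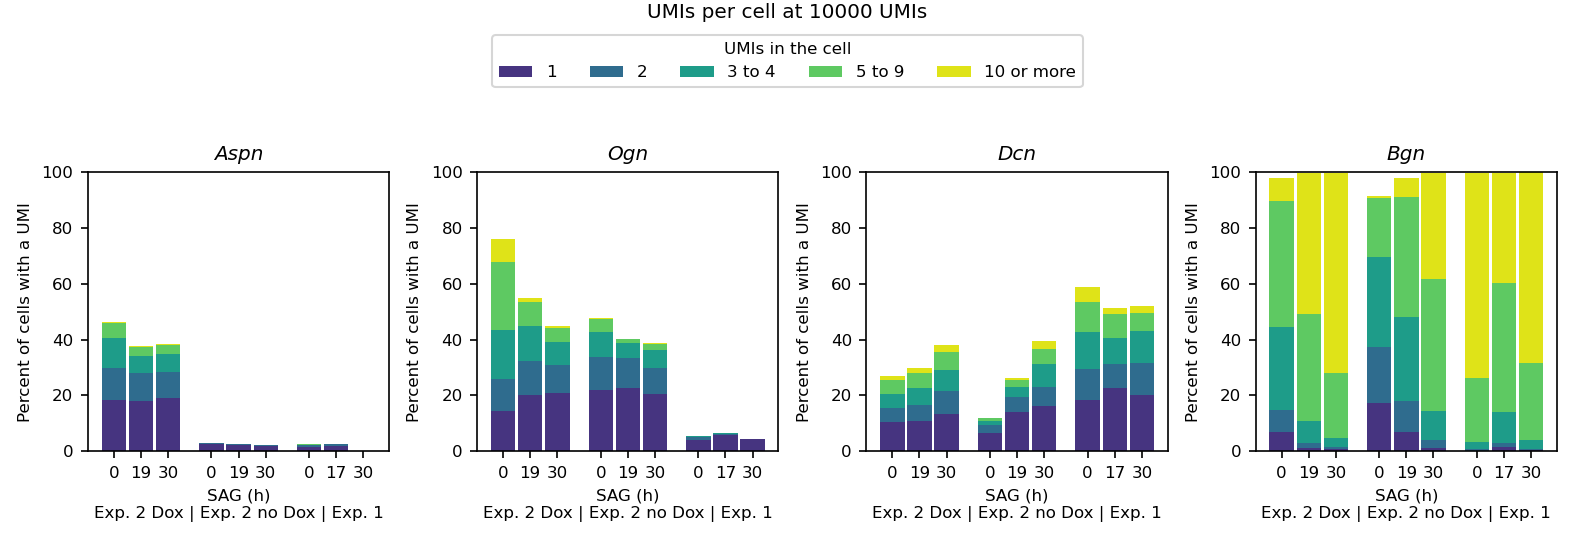
Percent of cells with 1, 2, 3 to 4, 5 to 9 and 10 or more UMIs of Aspn, Ogn, Dcn and Bgn at 10000 UMIs per cell, stacked, for the 9 libraries by hours of SAG; cells with 0 UMIs make up the rest to 100. Aspn reached 37.6% to 46.5% of cells with Dox and at most 2.97% elsewhere, while Bgn was found in nearly all cells.

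Within libraries, the pairs whose counts were most highly correlated over cells were Dcn with Lum and Aspn with Ogn. Omd, which lies between Aspn and Ogn, had low correlations with both but was found in few cells. Pearson correlations were taken over the thinned cells, on the log of 1 plus the UMI count. A library was used for a pair where each gene was found in at least 50 cells. For Dcn and Lum the median was 0.43 over 8 libraries (0.32 to 0.49, with 50 to 123 cells that had both). For Aspn and Ogn it was 0.37 over 5 libraries (0.14 to 0.43, with 45 to 559 such cells). Dcn and Ogn followed with 0.23. Omd had 0.08 with Aspn and 0.07 with Ogn over 3 libraries, and the highest median of the remaining pairs was 0.19, for Aspn and Dcn. Cells of a library share its depth and its free RNA, and in counts this sparse the values are a description. With Dox, cells with an Aspn UMI held 2.02 to 2.64 times the Ogn, 1.98 to 2.36 times the Dcn and 2.06 to 2.72 times the Lum of cells without one, against 1.18 to 1.23 times the Bgn. Without Dox in Experiment 2 the ratios were 3.01 to 3.72 for Ogn, 1.59 to 3.105 for Dcn and 3.45 to 4.43 for Lum, with 46 to 79 cells that had an Aspn UMI. Experiment 1 had 23 and 14 such cells at 0 and 17 h, with ratios of 9.53 and 4.45 for Ogn and 1.30 and 2.23 for Dcn. Lum went the other way there, with 1 and 0 UMIs in these cells and ratios of 0.159 and 0.

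Under SAG, asporin and osteoglycin were lower at both later times in all 3 arms, while no member passed the test. At 30 h without Dox Aspn had 3.05 CPM in Experiment 2 and 0.773 CPM in Experiment 1, against 4.80 and 3.56 CPM at 0 h. The log2 change was -1.17 (SE 0.30, adjusted p = 0.0717, edgeR over all 9 libraries with experiment as a block). With alternatives this adjusted p ran between 0.009999 and 1, and fell under 0.05 without the filter on low counts (0.009999), with all barcodes (0.0402), with cells of 1% to 10% mitochondrial UMIs (0.0125), with thinned cells (0.0109) and without the 0 h library of Experiment 1 (0.0498) or of Experiment 2 (0.0323). Ogn had 68.9 CPM in Experiment 2 and 3.56 CPM in Experiment 1 at 30 h, against 137 and 5.67 CPM at 0 h, a log2 change of -0.85 (SE 0.28, adjusted p = 0.215). In the libraries with Dox both genes showed the same direction, Aspn with a difference of -0.92 and Ogn with -2.03 at 30 h, single libraries without a test. Of the 14354 genes tested 0.446% were called, and edgeR called 0 of the 8 members, with 2 at an unadjusted p under 0.05. DESeq2 also called 0, with 2 at that level.

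Decorin, lumican and biglycan had no common direction with SAG. In Experiment 2 without Dox, the 3 genes were higher at 30 h, with log2 differences of 1.92 for Dcn, 1.16 for Lum and 0.98 for Bgn. In Experiment 1 the same differences were -0.52, -1.28 and -0.04. The fits over both experiments lie between these, at 0.66 for Dcn (SE 0.36, adjusted p = 0.543), -0.13 for Lum (SE 0.34, adjusted p = 0.930) and 0.44 for Bgn (SE 0.35, adjusted p = 0.687). Leaving out the 0 h library of Experiment 1 made the change 1.70 for Dcn (adjusted p = 1.95e-04) and 1.02 for Lum (adjusted p = 0.0131), and 0.95 for Bgn, which was not called (adjusted p = 0.150). In that fit Ogn (-1.05, adjusted p = 0.0374) and Aspn were called too, making 4 members. Leaving out the 0 h or the 30 h library of Experiment 2 made it -0.26 or -0.18 for Dcn, leaving out the 0 h library of Experiment 2 made it -0.013 for Bgn, and leaving out the 30 h library of Experiment 1 made it 0.64 for Lum. At 0 h the experiments also lay far apart, with Dcn at 33.3 CPM in Experiment 2 and 192 CPM in Experiment 1. The fits for Omd and Prelp gave -0.996 and 0.50 (SE 0.54 and 0.43, adjusted p = 0.542 and 0.713), and no fold is given for Fmod, which had 2 UMIs in Experiment 2 and 0 in Experiment 1 at 30 h, against 0 in both at 0 h (adjusted p = 0.722).

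At 17 to 19 h of SAG the members were likewise not called. The fits gave -0.38 for Aspn (SE 0.29) and -0.48 for Ogn (SE 0.28), each with an adjusted p of 1. Of all genes 0.111% were called, 0.0557% as higher and 0.0557% as lower. The tool edgeR called 0 of the 8 members, with 0 at an unadjusted p under 0.05, and DESeq2 gave the same counts. Without the 0 h library of Experiment 1, Dcn (1.41, adjusted p = 0.0144) and Lum (1.32, adjusted p = 0.00207) were called. Without that of Experiment 2 they stood at -0.55 and -0.80, and Lum at -0.15 without the 19 h library of Experiment 2. No library without SAG at the later times was analysed here, so a change with SAG and a change with time in culture cannot be told apart. In both comparisons edgeR called 0 of the 73 tested genes of the other lists described below, with 4 at 30 h and 1 at 17 to 19 h at an unadjusted p under 0.05, and DESeq2 called 0, with 4 and 2.

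The response to 30 h of SAG was not shown to differ with Dox for any member. The difference of the responses was 0.24 for Aspn (SE 0.47), -0.47 for Dcn (SE 0.61), -0.51 for Lum (SE 0.57), 0.50 for Bgn (SE 0.61) and -1.18 for Ogn (SE 0.47), each with an adjusted p of 1. Of all genes tested 0% were called, with 206 at an unadjusted p under 0.05, and DESeq2 also called 0, with 76 at that level. Of the 8 members edgeR and DESeq2 both called 0, each with 1 at an unadjusted p under 0.05, which in edgeR was Ogn. Each condition with Dox has 1 library, assumed to vary like the others.

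Between the experiments without Dox, osteoglycin had the largest fitted difference of the family. Ogn had 137, 82.7 and 68.9 CPM at 0, 19 and 30 h in Experiment 2, against 5.67, 5.02 and 3.56 CPM at 0, 17 and 30 h in Experiment 1. The log2 difference of Experiment 2 over Experiment 1 was 4.32 (SE 0.22, adjusted p = 5.13e-10, edgeR over the 6 libraries without Dox). Prelp and Omd were also higher in Experiment 2, with log2 differences of 2.98 (SE 0.50, adjusted p = 2.08e-04) for Prelp and 2.86 (SE 0.62, adjusted p = 0.00172) for Omd, on 2 to 8 and 0 to 4 UMIs per library of Experiment 1. For Aspn the difference was 0.84 (SE 0.29, adjusted p = 0.0287), a call lost without the 30 h library of Experiment 1 (0.41, adjusted p = 0.207) or of Experiment 2 (0.45, adjusted p = 0.180). Dcn was lower by a log2 difference of -1.20 (SE 0.34, adjusted p = 0.0094) and Lum by -0.85 (SE 0.32, adjusted p = 0.0448). Both lost the call without the 0 h library of either experiment, where Dcn came to -0.57 and -0.56 and Lum to -0.17 and -0.16. Bgn, at -0.68 (SE 0.29, adjusted p = 0.0704), did not pass. It was called by DESeq2 (adjusted p = 0.0135), which did not call Dcn (adjusted p = 0.133), and by edgeR without the 30 h library of Experiment 2 (-0.83, adjusted p = 0.0428) or of Experiment 1 (-0.87, adjusted p = 0.0396). Fmod was not tested.

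Thus 6 of the 7 tested members were called, 4 higher and 2 lower, where 40.6% of all genes were, 20.4% as higher and 20.2% as lower. The matrices of the experiments were written by different software versions with different feature lists, so that culture, library and counting cannot be told apart in this comparison.

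Cells with a Gli1 UMI under SAG held slightly more osteoglycin. In each of the 6 SAG libraries, cells thinned to 10000 UMIs were split into those with a Gli1 UMI (20 to 433 cells) and those without (490 to 2422 cells), and CPM of these sums carry no TMM factor. Ogn had 190.3, 129, 96.4 and 94.2 CPM in Gli1-positive cells of the libraries at 19 h with Dox, 30 h with Dox, 19 h without and 30 h without Dox of Experiment 2, against 155, 106, 68.7 and 73.8 CPM in Gli1-negative cells of the same libraries. In Experiment 1 it rested on 7 and 1 UMIs of Gli1-positive cells at 17 and 30 h. Gli1-positive cells were higher in all 5 libraries with more than 3 UMIs on both sides, with a log2 difference of 0.31 (SE 0.05, adjusted p = 1.24e-05, edgeR with library as a block). Aspn differed by 0.30 (SE 0.08, adjusted p = 0.0030) and Dcn by 0.24 (SE 0.06, adjusted p = 9.08e-04), higher in 3 of 5 and 4 of 6 libraries. Aspn had 101 and 95.2 CPM in Gli1-positive cells with Dox at 19 and 30 h, against 76.9 and 77.6 CPM in Gli1-negative cells, and at most 10 UMIs in Gli1-positive cells of any other library. DESeq2 called Ogn only among the members, with adjusted p = 0.661 for Aspn and 0.286 for Dcn. The Aspn call was also lost without the 19 h library with Dox (adjusted p = 0.183). Lum and Bgn did not pass (0.16, SE 0.14, and -0.03, SE 0.03). Over all genes 11.5% were called, 3.57% as higher and 7.89% as lower, against 3 of the 5 members tested, all higher.

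Genes that build, bind or cut the family were counted from lists written from general knowledge, with earlier results of these data known. Their counts with Dox stand beside 19.4% of all genes called higher and 19.4% lower. With Dox, fibrillar and related collagens were mostly higher, 7 of 8 tested. Among them were Col6a3 (1.21, SE 0.12, adjusted p = 1.66e-10), Col1a2 (0.80, SE 0.15, adjusted p = 9.32e-05) and Col1a1 (0.74, SE 0.14, adjusted p = 1.02e-04). The fibrillar collagen gene Col3a1 did not follow them. It had 535, 395 and 370 CPM at 0, 19 and 30 h with Dox, against 517, 503 and 625 CPM without Dox in Experiment 2. Of 8 tested enzymes that trim the family or its collagens 6 were higher and 0 lower, led by Mmp14, a membrane-bound matrix protease (0.92), Bmp1, which removes propeptides of procollagen and biglycan (0.67), and Furin (0.44). Of 18 tested genes of chondroitin and dermatan sulfate assembly 9 were higher and 0 lower, led by the sulfotransferase Chst12 (0.72), the polymerising factor Chpf2 (0.49) and the uronyl sulfotransferase Ust (0.47). In keratan sulfate assembly 1 of 4 was higher, Chst2 (0.49), and 2 were lower, B4galt4 (-0.72) and B4galt1 (-0.37). Growth factors and receptors that the family binds gave 5 higher and 2 lower of 11, with Ccn2 (1.14), Igf1r (0.82) and Tgfb3 (0.66) the clearest. Of 14 other proteoglycans 5 were higher and 1 lower, led by Cspg4 (0.78), Gpc1 (0.60) and Gpc6 (0.53). Besides Ecm2, Podn (1.71, SE 0.47, adjusted p = 0.00364) was higher among 5 tested further leucine-rich proteoglycans. DESeq2 called 8 of 8 collagens, 5 of 8 enzymes, 6 of 18 chondroitin and dermatan sulfate genes, 3 of 4 keratan sulfate genes, 7 of 11 growth factors and receptors, 4 of 14 other proteoglycans and 1 of 5 further leucine-rich proteoglycans, in either direction. The lists' median changes in edgeR were 0.66, 0.45, 0.24, -0.15, 0.13, 0.27 and 0.25 in the order given, against 0.02 over all genes.

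Counts in Gli1-positive cells stand beside 3.57% of all genes called higher and 7.89% lower. Of 8 tested collagens 7 were higher, with Col3a1 (0.38), Col6a1 (0.31) and Col6a2 (0.33) the clearest. Of 8 enzymes 3 were higher, Mmp2 (0.30), Adamts5 (0.32) and Lox (0.24). Of 10 other proteoglycans 3 were higher, led by Vcan (0.35), and 2 lower, Gpc1 (-0.42) and Cspg4 (-0.52), both of which were higher with Dox. Ccn4 was lower (-0.43) and Igf1r higher (0.19) among 10 growth factors and receptors, and edgeR called 0 of 17 chondroitin and dermatan sulfate genes, with 2 at an unadjusted p under 0.05, against 0 and 0 in DESeq2. In the same comparison DESeq2 called 6 of 8 collagens, 3 of 8 enzymes, 2 of 10 other proteoglycans against 5 by edgeR, and 0 of 10 growth factors and receptors against 2. Between the experiments, where 20.4% of all genes were called higher and 20.2% lower, edgeR called 0 of 8 collagens. There 1 collagen had an unadjusted p under 0.05 in edgeR, and DESeq2 called 0, with 2 at that level. The enzymes split, with Adamts5 higher in Experiment 2 (2.29) and Mmp2 and Mmp14 lower (-1.32 and -1.11). Of 13 other proteoglycans 4 were higher and 3 lower, and of 4 keratan sulfate genes 2 were higher and 1 lower. Of 17 chondroitin and dermatan sulfate genes 0 were higher and 3 lower. Growth factors and receptors gave 1 higher and 1 lower of 11, and further leucine-rich proteoglycans 0 higher and 1 lower of 4.

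The genes whose levels followed Aspn most closely over the 9 libraries were Colec12, a scavenger receptor (Pearson r 0.97 of log2 CPM), Pdgfrb, a receptor of platelet-derived growth factor (0.96), Vasn (0.96) and Cped1 (0.95), out of 6930 genes with a mean of at least 10 CPM. Colec12 had 167, 172 and 151 CPM at 0, 19 and 30 h with Dox, against 101, 100.4 and 90.8 CPM without Dox in Experiment 2 and 102, 77.3 and 78.2 CPM at 0, 17 and 30 h in Experiment 1. Pdgfrb had 51.2, 47.5 and 43.9 CPM with Dox, against 22.9, 23.4 and 25.3 CPM without Dox in Experiment 2 and 25.9, 21.4 and 22.3 CPM in Experiment 1. The libraries with Dox form a cluster of their own here, so these values mostly restate the difference with Dox. The closest to Ogn were Mid1 and Cd59a (both over 0.99), to Bgn Cuedc1 (0.99) and Dvl2 (0.98), to Dcn Dnajc14 and Wipi1 (both 0.94), and to Lum Laptm4a (0.90) and Vps26c (0.87). Mid1 had 5.18 to 5.58 CPM in Experiment 1 and 11.6 to 20.4 CPM in Experiment 2. Cd59a had 5.53 to 6.23 and 14.9 to 25.5 CPM in the same order. The values for Ogn thus in part restate the difference between the experiments.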

How the data were processed

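Single NIH3T3-CG cells were profiled with the 3' v3.1 kit of 10x Genomics, per the labels' protocols. Per the submitters' processing notes, reads went through Cell Ranger with mm10 as the genome. Software version 3.1.0 wrote the Experiment 1 matrices (31054 features) and version 6.0.1 those of Experiment 2 (32286 features), per the file headers. What was deposited are raw counts of UMIs for each gene in each barcode. How barcodes were chosen is not given in the sources used here.

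Features were joined by gene ID (0.0701% to 0.832% of UMIs lay outside the shared set), cells were kept from 5000 UMIs and up to 10% mitochondrial UMIs, and counts were summed per library. The members and lists were chosen with earlier results of these data known. The test was the quasi-likelihood F test of edgeR 4.0.16 (TMM scaling after filterByExpr, Benjamini-Hochberg, threshold 0.05) in R 4.3.3, with 2 residual degrees of freedom, or 5 for Gli1. TMM factors ran from 0.694 to 1.19. Standard errors (SE) were taken as the log2 change over the root of its F. The experiment number, a batch in the labels that 1 library of each time shares, was the replicate block of the SAG fits. Since separate cultures are not stated, p-values measure spread among libraries that may be technical only. In edgeR this spread is in part pooled over genes. Alternatives were DESeq2 1.42.0, median-of-ratios factors, no low-count filter, all barcodes, cells of 1% to 10% mitochondrial UMIs, thinned cells, no replicate block, libraries without Dox only, each library left out and, added after seeing the data, library sizes alone. The 30 h SAG and Dox fits were also run on simulated counts. These had the same spread for all genes and no added difference between experiments or between times in the Dox fit. They therefore do not check the fits under such differences. Doublets were not called. Per-cell values used scipy 1.17.1 and numpy 2.4.6 in Python 3.11.15, with cells thinned to 10000 UMIs, Clopper-Pearson and Poisson 95% intervals and a limit of 3 counts where 0 were seen.

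Other genes named are up to 3 called genes per list and comparison by p, the genes most like a member (1 of them is not reported here), Gli1 and, chosen after their values were seen, genes beside Aspn. Promoters of 6 members were matched by symbol in RefSeq sequences of GRCm38.p6.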

Additional observations from a re-analysis of the deposited data

Results flagged for a closer look

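The following pairs of arms moved in opposite directions with SAG by more than counting error, each with single libraries; these differences were not tested. At 30 h against 0 h, Dcn changed by 1.92 on the log2 scale without Dox in Experiment 2 and by -0.52 in Experiment 1, a difference of 2.44. Lum changed by 1.16 and -1.28 in the same order, a difference of 2.45, and Bgn by 0.98 and -0.04, a difference of 1.02. At 17 to 19 h against 0 h, Dcn changed by 1.14 in Experiment 2 without Dox and by -0.33 in Experiment 1 (difference 1.47), Lum by 1.16 and -0.64 (difference 1.79), and Bgn by 0.42 and -0.48 (difference 0.90). Within Experiment 2 at 19 h, Dcn changed by -0.15 with Dox and by 1.14 without (difference -1.29), and Lum by -0.62 with Dox and by 1.16 without (difference -1.77). The 0 h library without Dox of Experiment 2, which enters all 8 of these, had the lowest Dcn, Lum and Bgn levels of the 9.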

How the results depend on the processing

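Calls of Aspn, Omd, Prelp and Fmod with Dox were kept under each alternative that tested them, and those of Ogn, Prelp and Omd between experiments likewise. With DESeq2, the counts of genes called were 12 (SAG 30 h), 7 (SAG 17 to 19 h) and 442 (Gli1). With median-of-ratios factors they were 30 and 9, without the low-count filter 210, 43 and, for the difference of responses, 10, with all barcodes 175, 34 and 4, with thinned cells 198, 40 and 8, with libraries without Dox only 13 and 4, and for Gli1 at 5000 UMIs 249. Members called at SAG 30 h became 1 (Aspn) without the low-count filter, with all barcodes, with 1% to 10% mitochondrial UMIs and with thinned cells. For Gli1 they became 1 with DESeq2 and at 5000 UMIs. Without the replicate block, edgeR called 0 genes at 30 h and 0 at 17 to 19 h, with 85 and 35 at an unadjusted p under 0.05, and the pairing by experiment changed no member's call. With 1 library left out, genes called ran from 1 to 1276 and members from 0 to 4 at 30 h, from 8 to 243 and 0 to 2 at 17 to 19 h, from 2966 to 4313 and 4 to 7 with Dox, from 0 to 163 and 0 to 0 for the difference of responses, from 2615 to 4955 and 4 to 6 between experiments and from 713 to 1240 and 2 to 3 for Gli1. The causes were not tested.

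Signs turned as follows. Prelp at 30 h became -0.0078 with all barcodes. At 17 to 19 h Prelp became 0.083 with all barcodes, 0.12 with thinned cells and 0.061 without the replicate block, and Lum -0.080 with thinned cells and -0.13 without the block. With Dox, Lum became -0.015 with all barcodes. In the difference of responses Aspn became -0.26 with all barcodes and Omd 0.18 with thinned cells. None of these passed the test in the alternative named. With 1 library left out, the ranges at 30 h were -0.26 to 1.70 for Dcn, -1.10 to 1.02 for Lum, -0.013 to 0.95 for Bgn, -0.66 to 3.47 for Fmod (fitted on 0 to 4 UMIs per library without Dox), -1.26 to 0.54 for Omd and -1.18 to 0.91 for Prelp. At 17 to 19 h they were -0.55 to 1.41 for Dcn, -0.80 to 1.32 for Lum, -0.51 to 0.45 for Bgn and -1.85 to 0.23 for Prelp. With Dox they were -0.024 to 0.84 for Dcn and -0.40 to 0.44 for Lum. For the difference of responses they were -0.28 to 1.24 for Aspn, -0.0036 to 0.95 for Bgn, -1.51 to 0.44 for Dcn, -1.66 to 0.46 for Lum, -1.63 to 0.20 for Omd and -0.65 to 1.43 for Prelp. For Gli1, Lum ran from -0.0086 to 0.37. Of 144 levels and 144 shares of cells under other cell filters or depths, 57 and 111 moved beyond their counting interval. Depth limits Fmod, Omd and Prelp in Experiment 1, with 0 to 8 UMIs per library.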
